A study of Rattus norvegicus with 28 samples.

Results

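The mitochondrial ribosome carries its own pair of ribosomal RNAs, and both were measured here in rat brain. They were the rows ENSRNOG00000043866 (16S, Mt-rnr2, 1571 bases) and ENSRNOG00000030478 (12S, Mt-rnr1, 958 bases), 2 of the 32623 Ensembl gene rows. They were chosen by these identifiers because they lead the libraries by abundance, so their high level is a description of how they were picked and not a result. The deposited tables carry identifiers and lengths without gene names. The names 16S and 12S therefore come with the choice of the rows, and their check rests on the listed lengths, which had 1 value each in all 28 libraries. No annotation of the mitochondrial genome was used here, so no chromosome position or sequence is given for either RNA.

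Both RNAs are encoded by mitochondrial DNA and transcribed from its heavy strand, 12S upstream of 16S, with transfer RNAs between and around them whose excision frees the mature molecules. The 12S RNA forms the core of the small subunit of the mitochondrial ribosome, which reads the messenger, and the 16S RNA forms the core of the large subunit, which joins the amino acids. The ribosomes they build make only the few proteins that mitochondrial DNA encodes, all of them subunits of the respiratory chain or of ATP synthase, on which neurons depend for much of their energy.

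The 28 libraries came from whole brains of inbred rats of 2 strains. SHR/OlaIpcv, the spontaneously hypertensive rat, gave 2 males and 12 females, of which 4 each were at pre-estrus, estrus and post-estrus. BN-Lx/Cub, a Brown Norway line that carries a limb mutation (polydactyly-luxate), gave the same numbers. The study asked how genotype interacts with sex and cycle stage in brain RNA. No animal is labelled with a drug or a transgene; the extraction notes call the rats alcohol-naïve and speak of males, although the sample labels name females too, and the sample labels were used. Ages are not stated. Each library is labelled a biological replicate and was taken as a separate animal.

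Every description also carries a suffix, b35 or b37, whose meaning is not stated, and a number shared by 1 or more animals. The suffix was treated as a possible technical batch: b35 held 7 and b37 held 5 of the SHR females, against 5 and 7 of the BN-Lx females. RNA was reduced for ribosomal RNA with Ribo-Zero before stranded library construction, and the labels do not say whether mitochondrial ribosomal RNA was among its targets. All levels below are therefore what remained in the libraries, and the part of that step in any difference was not tested.

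The libraries held 43410563 to 90667238 counts each, of which 1.46% to 6.05% fell on the 92 ERCC spike-ins, synthetic RNAs added to the samples. A share of gene counts below is a row's expected count divided by the sum over all Ensembl rows, spike-ins left out. At this depth the 95% Wilson interval of a share reached no further than 0.0142 percentage points either side. It covers counting error only. The spread over all animals lies far above it, although the intervals of some single animals overlap. The counts of replicates in a group differed by 31.5 to 688 times the sampling noise (chi-square per degree of freedom, 38 pairs). No 2 libraries within a group were thus copies of each other. Pairs across groups were not checked, and this value cannot show that 2 libraries come from 2 animals. BN-Lx pre-estrus replicates 7a and 7b share a replicate number in their descriptions and were taken as separate animals. All 56 values of the 2 RNAs were whole numbers, so no fractional division of reads by RSEM shows in them. No other row had the same counts. Whether reads that also match nuclear copies of mitochondrial DNA were assigned to the right row was not tested.

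The 16S RNA was the most abundant gene in 28 of 28 libraries. Its count ran between 7976355 in SHR post-estrus replicate 13 and 23114769 in BN-Lx post-estrus replicate 5. As a share of gene counts it averaged 25.9% ± 5.34 (SD, n = 28), with a lowest value of 13.2% and a highest of 35.9%, a 2.72-fold range. The same animals marked both ends on the count and on the share.

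The 12S RNA ranked second in 23 libraries and no lower than rank 4 in the remaining ones. It averaged 5.76% ± 1.00 of gene counts (SD, n = 28), between 3.87% in BN-Lx estrus replicate 4 and 8.84% in SHR estrus replicate 5, a 2.29-fold range. The low and high ends of 12S thus fell in other animals than those of 16S. Both RNAs together took 31.6% ± 5.48 of gene counts, between 18.0% in SHR post-estrus replicate 13 and 42.5% in BN-Lx post-estrus replicate 5.

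Levels of the 2 RNAs can be set against each other only per length, which the deposited TPM values (abundance scaled by transcript length and library) allow. On that scale 16S stood 2.62 ± 0.705 times above 12S (SD, n = 28), between 1.52 and 4.24 times. Every mitochondrial ribosome holds a single copy of each, and 16S exceeded 12S in all 28 libraries. TPM values ran between 46103 and 159535 for 16S and between 22513 and 48182 for 12S.

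The values by animal follow, 16S first. SHR males had 16S shares of 29.4% and 24.2%, against 22.4% and 27.04% in BN-Lx males. At pre-estrus the SHR females had 19.95%, 17.7%, 26.1% and 27.7%, and the BN-Lx females 33.7%, 26.7%, 34.7% and 27.7%. Males of the strains overlapped, and at pre-estrus the lowest BN-Lx females lay beside the highest SHR females.

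At estrus the SHR females had 16S shares of 26.8%, 22.7%, 27.3% and 21.96%, against 34.1%, 25.8%, 22.3% and 19.7% in BN-Lx females. At post-estrus they were 25.1%, 26.1%, 23.3% and 13.2% in SHR females, against 26.7%, 22.5%, 35.9% and 33.8% in BN-Lx females. BN-Lx animals held the highest and SHR animals the lowest share at post-estrus, whereas at estrus BN-Lx animals held both extremes.

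The 12S shares crossed more. SHR males had 5.14% and 5.25%, against 6.44% and 5.50% in BN-Lx males. At pre-estrus the SHR females had 6.28%, 5.93%, 4.56% and 5.81%, and the BN-Lx females 7.06%, 4.51%, 5.25% and 6.84%. Both SHR males lay below both BN-Lx males. With 2 animals against 2, such a full separation has an exact permutation p of 0.333. The share of all genes separated in this way was not counted. At pre-estrus every SHR value lay within the BN-Lx range.

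At estrus 12S held 8.84%, 5.79%, 6.35% and 4.99% of gene counts in SHR females, against 5.63%, 3.87%, 6.77% and 6.31% in BN-Lx females. At post-estrus it held 6.37%, 5.30%, 5.74% and 4.87% in SHR females, against 5.28%, 5.40%, 6.65% and 4.54% in BN-Lx females. The strains overlapped at both stages.

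**Figure D1:**
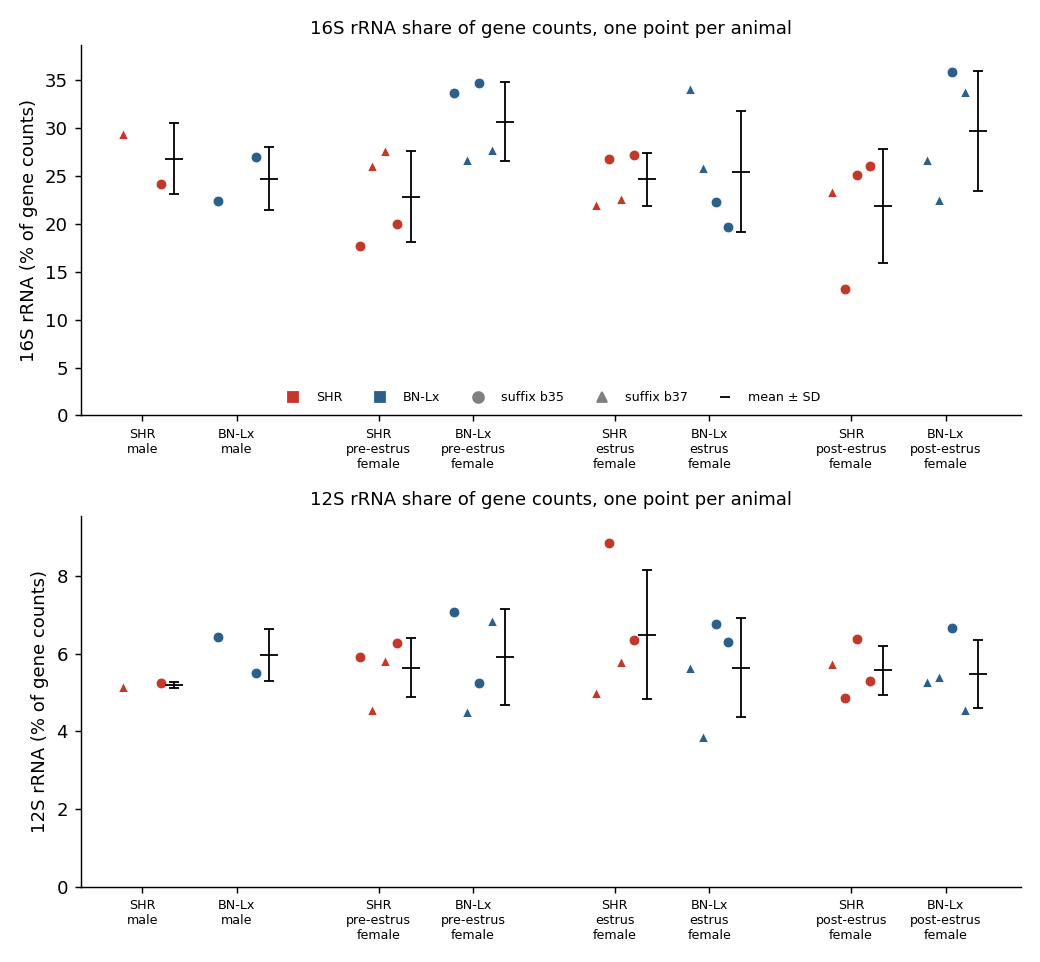
Share of gene counts held by 16S (top) and 12S (bottom) in each of the 28 animals, in percent, by sex or cycle stage, with SHR left of BN-Lx in each pair. Circles are libraries with suffix b35 and triangles b37; black bars are the mean ± SD of each group. The highest 16S shares, 33.7% to 35.9%, all belong to BN-Lx females. The 12S groups overlap except in males, where 2 animals stand against 2 (exact permutation p = 0.333).

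Ordered by group mean, the 16S share was highest in BN-Lx pre-estrus females (30.7% ± 4.10) and BN-Lx post-estrus females (29.7% ± 6.23). Then came SHR males (26.8% ± 3.70), BN-Lx estrus females (25.5% ± 6.30), BN-Lx males (24.7% ± 3.28) and SHR estrus females (24.7% ± 2.75). SHR pre-estrus females (22.9% ± 4.78) and SHR post-estrus females (21.9% ± 5.94) came last (SD, n = 4 females or 2 males). No neighbours in this order differed by more than their SDs.

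For the 12S share the order began with SHR estrus females (6.49% ± 1.66), BN-Lx males (5.97% ± 0.668), BN-Lx pre-estrus females (5.92% ± 1.24) and SHR pre-estrus females (5.65% ± 0.750). It ended with BN-Lx estrus females (5.64% ± 1.27), SHR post-estrus females (5.57% ± 0.641), BN-Lx post-estrus females (5.47% ± 0.876) and SHR males (5.20% ± 0.0784). Neighbours again differed by less than the larger of their SDs, and the 16S order was not repeated.

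The strains were compared over females first. SHR females had 16S shares with a lowest value of 13.2%, a median of 24.2% and a highest of 27.7%, against 19.7%, 27.2% and 35.9% in BN-Lx females. Of 12 BN-Lx females, 6 lay above the highest SHR female, and 10 of 12 SHR females lay below the BN-Lx median. SHR females averaged 23.1% ± 4.40, against 28.6% ± 5.62 for BN-Lx females (SD over animals, n = 12 each), a difference of -5.48 percentage points. A two-sided permutation test over animals gave p = 0.0145 (100000 resamples), or 0.0328 with Benjamini-Hochberg adjustment over the 4 measures compared (both shares, their sum and the ratio). This and the later permutation tests of strain took animals as exchangeable, although some share a description number. No such number occurs in both strains, so its part cannot be told apart from strain. That the leading gene took a smaller share in SHR females was known when the RNAs were chosen, so this difference is given as the base of what follows and not as independent support. Genes detected (a whole count or more) ran from 16587 to 20155 over the libraries, with a median of 19438.5. Among BN-Lx females with the highest 16S shares, post-estrus replicate 5 had 16587, and pre-estrus replicates 7a and 3 had 17954 and 18121. Estrus replicate 2 had 19914 and post-estrus replicate 6 had 19104. SHR post-estrus replicate 13, with the lowest share, had 18084. The part of this number in the shares was not tested. In bulk tissue, fewer cells or mitochondria of a kind and less RNA in each cannot be told apart.

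The 16S share difference lost its call when any of 8 of the 24 females was left out. For BN-Lx these were estrus replicate 2 (-4.98 points once removed), post-estrus replicates 5 (-4.83) and 6 (-5.01), and pre-estrus replicates 3 (-5.02) and 7a (-4.93). For SHR they were post-estrus replicate 13 (-4.58) and pre-estrus replicates 10 (-4.99) and 8 (-5.19). Permutation tests then gave adjusted p between 0.0535 and 0.0632, so the direction held and the call did not. The adjusted p of the 16S share also depends on the p of the other measures compared. These losses are therefore not a property of the 16S share alone.

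For 12S, SHR females averaged 5.90% ± 1.10, against 5.68% ± 1.05 for BN-Lx females (SD over animals, n = 12 each), a difference of 0.228 points with permutation p = 0.621. Its direction depended on what it was counted against. Per 100 counts of all other genes it reached 8.41 ± 1.99 in SHR females, against 8.73 ± 1.95 in BN-Lx females, a difference of -0.324, and without SHR estrus replicate 5 the share difference was -0.0398 points. The sum of both RNAs averaged 29.0% ± 4.87 in SHR females, against 34.3% ± 5.74 in BN-Lx females, -5.26 points, with permutation p = 0.0246 and adjusted p = 0.0328; it lost its call without any of the same 8 animals, with -5.001 to -4.26 points.

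The ratio of 16S to 12S counts needs no library size. It was 5.72 and 4.60 in SHR males, against 3.48 and 4.92 in BN-Lx males. SHR females had ratios between 2.70 and 5.72 with a median of 4.00, against 3.12 to 7.45 with a median of 5.22 in BN-Lx females. The strains overlapped, but 11 of 12 SHR females lay below the BN-Lx median.

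SHR females had a mean ratio of 3.99 ± 0.904, against 5.21 ± 1.39 for BN-Lx females (SD over animals, n = 12 each). Per length, from TPM, the means were 2.27 ± 0.515 for SHR females against 2.96 ± 0.786 for BN-Lx females. On the log2 scale the count ratio averaged 1.96 ± 0.33 in SHR females, against 2.33 ± 0.41 in BN-Lx females, a difference of -0.37 (two-sided permutation p = 0.0244, adjusted p = 0.0328). The difference was smaller than the SD of the BN-Lx females, and the ranges overlapped. Since the ratio is built from the same 16S counts, whose lower share in SHR females was already known, it is not independent support either.

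**Figure D2:**
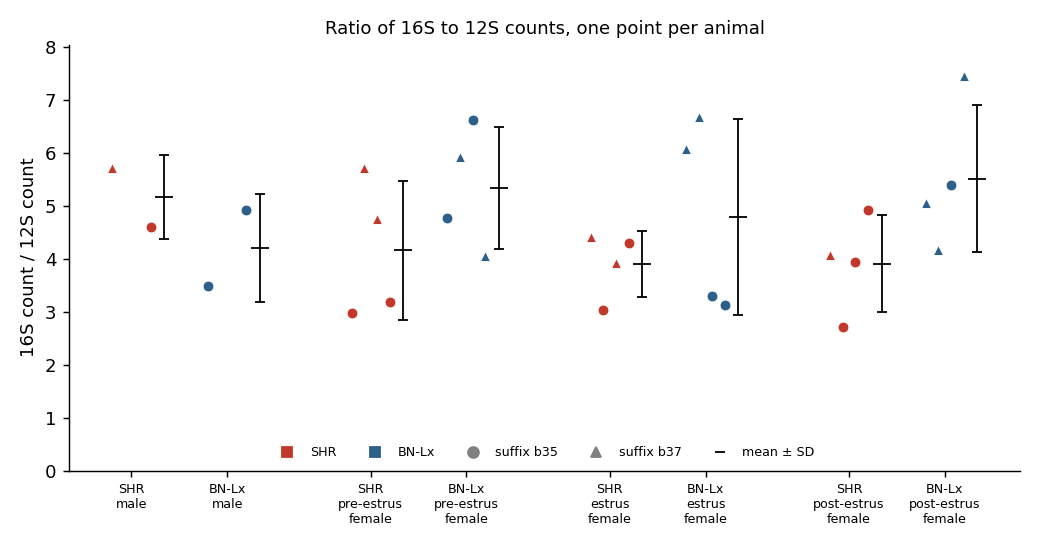
Ratio of the 16S count to the 12S count in each of the 28 animals, by sex or cycle stage, with SHR left of BN-Lx in each pair. Circles are suffix b35, triangles b37, and black bars the mean ± SD of each group. Female SHR ratios lie between 2.70 and 5.72 and female BN-Lx ratios between 3.12 and 7.45.

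The ratio difference lay between -0.43 and -0.32 with any single animal left out. It lost its call without any of the 8 animals named for the 16S share, and without BN-Lx estrus replicate 4 (-0.33), BN-Lx pre-estrus replicate 5 (-0.35) or SHR estrus replicate 5 (-0.34). Over those 11 animals the log2 difference lay between -0.38 and -0.32 and the permutation test's adjusted p between 0.0503 and 0.0632. Since the adjustment links the measures, the losses shared with the 16S share are not separate evidence. Among the 8 shared with the 16S share, removal of a BN-Lx female gave -0.34 (estrus replicate 2), -0.36 and -0.32 (post-estrus replicates 5 and 6), and -0.38 and -0.33 (pre-estrus replicates 3 and 7a). Removal of an SHR female gave -0.32 (post-estrus replicate 13), and -0.33 and -0.34 (pre-estrus replicates 10 and 8).

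The ratio also differed by suffix. Among females the log2 ratio was 1.81 ± 0.32 in b35 (n = 7) and 2.18 ± 0.22 in b37 (n = 5) of SHR, and 2.15 ± 0.47 in b35 (n = 5) and 2.46 ± 0.33 in b37 (n = 7) of BN-Lx. Averaged over the strains the b35 minus b37 difference was -0.34 (permutation p = 0.0247 within strains, two-sided). It was -0.28 once BN-Lx estrus replicate 8 was removed (permutation p = 0.0611), and -0.27 once replicate 9 of that group was (permutation p = 0.0643). The 12S share was 6.33% ± 1.03 in b35 females and 5.25% ± 0.801 in b37 females (SD, n = 12 each). The 16S share was 25.2% ± 7.08 in b35 females and 26.6% ± 4.01 in b37 females. What the suffix stands for was not tested.

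Within b35 the 16S share was 22.3% ± 5.43 in SHR females (n = 7) and 29.3% ± 7.64 in BN-Lx females (n = 5), -6.96 points with exact permutation p = 0.0947. Within b37 it was 24.3% ± 2.43 in SHR females (n = 5) and 28.2% ± 4.29 in BN-Lx females (n = 7), -3.85 points with exact permutation p = 0.119. The log2 ratio differed by -0.35 within b35 (exact permutation p = 0.154) and by -0.28 within b37 (exact permutation p = 0.131). The 12S share differed by -0.130 points within b35 and by 0.226 points within b37. Each suffix alone thus kept the direction for 16S and for the ratio without passing the threshold, and 12S changed sign. With strain permuted within suffix, an alternative chosen after seeing the data, the permutation test gave -5.40 points for the 16S share (adjusted p = 0.0460), -0.31 for the log2 ratio (adjusted p = 0.0460) and 0.0479 points for 12S.

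Spike-ins took 3.72% ± 1.25 of all counts in SHR females, against 2.78% ± 0.910 in BN-Lx females (SD over animals, n = 12 each), a difference that was not tested. Relative to the spike-ins the 16S difference kept its direction but not its call (-4.06 counts per spike-in count, permutation test's adjusted p = 0.0547). The part of the spike-in amounts in the strain difference was not tested.

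By stage, the 16S share of SHR females minus that of BN-Lx females was -7.85 points at pre-estrus (22.9% against 30.7%, exact permutation p = 0.0571), -0.809 points at estrus (24.7% against 25.5%, exact p = 0.914) and -7.79 points at post-estrus (21.9% against 29.7%, exact p = 0.171). The log2 ratio differed by -0.39 at pre-estrus (exact p = 0.2), -0.22 at estrus (exact p = 0.429) and -0.50 at post-estrus (exact p = 0.0571). With 4 animals against 4 the smallest p of this test is 0.0286. At estrus the strains were thus close, but the difference between the stages was not past its own test, which is given with the strain-by-stage values below.

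In males the strains stood the other way round on 16S. Its share averaged 26.8% ± 3.70 in SHR males and 24.7% ± 3.28 in BN-Lx males, and the log2 ratio 2.36 ± 0.22 in SHR males and 2.05 ± 0.35 in BN-Lx males (SD, n = 2 each; exact p = 0.667 for both). The 12S share was 5.20% ± 0.0784 in SHR males and 5.97% ± 0.668 in BN-Lx males (exact p = 0.333). With 2 animals against 2 no exact p can fall below 0.333, and the suffix is unevenly spread, since both BN-Lx males but only 1 SHR male are b35.

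The same contrasts were read from a fit across all 18134 genes that passed the filter on low counts, with edgeR's quasi-likelihood test, TMM scaling and a suffix term. In females, 16S had a log2 fold change of -0.43 (SHR over BN-Lx, SE 0.145, 95% interval -0.73 to -0.13) and 12S one of -0.12 (SE 0.106, -0.34 to 0.10). The p for 16S was 0.0073, and 0.0678 after Benjamini-Hochberg adjustment over all genes in edgeR; for 12S the adjusted p was 0.619. Of the 2 RNAs 0 were called by edgeR at an adjusted p under 0.05, against 9.51% of all genes in that comparison. An unadjusted p under 0.05 was found for 1 of the 2 RNAs and for 3734 of the 18134 genes. DESeq2 called 1, the 16S RNA, with a log2 fold change of -0.44 and an adjusted p of 0.0315. It called 2197 of 18089 genes in all. With limma voom, 0 of the 2 RNAs and 2220 of 18134 genes were called. Scaling by library totals alone moved the median of all genes to 0.15 and scaling by spike-ins moved it to -0.24, against 0.02 with TMM; relative to that median 16S was -0.45 and -0.40 and 12S -0.14 and -0.11 under these scalings.

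Single animals decided the edgeR call of 16S as well. It passed once replicate 9 of BN-Lx estrus (-0.47, adjusted p = 0.0455), replicate 4 of BN-Lx post-estrus (-0.47, 0.0408) or replicate 8 of SHR post-estrus (-0.47, 0.0494) was removed. Without the other animals in turn it did not, and over all of them the adjusted p reached 0.158.

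**Figure D3:**
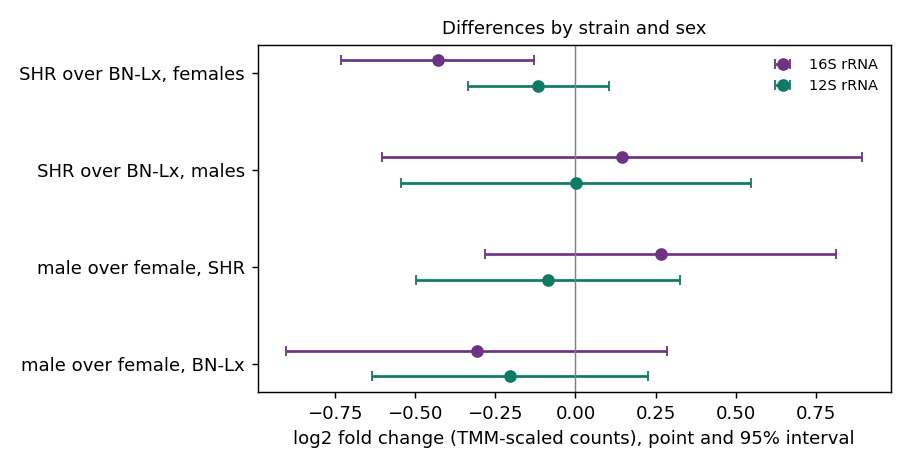
Log2 fold changes of 16S and 12S between strains and between sexes from the edgeR fit across all genes, on TMM-scaled counts; points are estimates and bars 95% intervals. The 16S interval in females by strain runs from -0.73 to -0.13, and the other 7 intervals include 0.

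In males edgeR gave SHR over BN-Lx log2 fold changes of 0.14 for 16S (95% interval -0.60 to 0.89) and 0.00 for 12S (-0.54 to 0.55). Neither passed (adjusted p = 0.885 and 1), in a comparison that called 0.800% of genes. The sign of both depended on single males: 16S was -0.04 once BN-Lx male 1 was removed and -0.05 once SHR male 1 was, and 12S was -0.05 once BN-Lx male 2 was removed and -0.19 once SHR male 1 was. These intervals leave room for differences in males as large as the one in females, in either direction.

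Between the sexes, males over females gave 0.27 for 16S in SHR (95% interval -0.28 to 0.81) and -0.31 in BN-Lx (-0.90 to 0.29). For 12S the values were -0.09 in SHR (-0.50 to 0.32; 0.10 without SHR male replicate 2) and -0.20 in BN-Lx (-0.63 to 0.23). Neither RNA was called by edgeR, DESeq2 or limma voom in either strain, and neither had an unadjusted p under 0.05; edgeR called 0.0331% of genes in each strain. The difference between the strains' sex effects was 0.57 for 16S (-0.24 to 1.39, adjusted p = 0.785 in edgeR) and 0.12 for 12S (-0.48 to 0.71, adjusted p = 0.898; -0.07 without SHR male replicate 1). So the opposite signs of 16S in the strains did not differ past the spread between animals.

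Over the estrous cycle, the mean 16S share in SHR females was 22.9% at pre-estrus, 24.7% at estrus and 21.9% at post-estrus (exact permutation p = 0.727). In BN-Lx females it was 30.7%, 25.5% and 29.7% at the same stages (exact permutation p = 0.385). The 12S share was 5.65%, 6.49% and 5.57% in SHR females (exact p = 0.512) and 5.92%, 5.64% and 5.47% in BN-Lx females (exact p = 0.844). The log2 ratio was 2.00, 1.95 and 1.93 in SHR females (exact p = 0.957) and 2.39, 2.18 and 2.43 in BN-Lx females (exact p = 0.666). Each test ran over all 34650 ways to place 12 animals in 3 stages, and every p was 0.957 once adjusted over the 8 stage tests. Estrus held the highest SHR and the lowest BN-Lx 16S share, and no stage test passed the threshold in either strain.

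In the edgeR fit no stage effect was called for either RNA. The p over the 3 stages was 0.696 for 16S and 0.207 for 12S in SHR females, and 0.326 and 0.661 in BN-Lx females (adjusted p 1 in SHR and 0.977 in BN-Lx). The strain difference by stage had an unadjusted edgeR p of 0.256 for 16S and of 0.178 for 12S, and an adjusted p of 0.972 for both. DESeq2 and limma voom called neither RNA in these comparisons, and no unadjusted p was under 0.05. The edgeR fit called 0% of all genes for stage in SHR, for stage in BN-Lx, for strain by stage and for strain by sex, where 116, 589, 268 and 632 genes had an unadjusted p under 0.05 in these comparisons; DESeq2 called 1, 3, 1 and 3 genes and limma voom 1, 0, 0 and 0.

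How closely the 2 RNAs moved together depended on what they were counted against. Per counts of all other genes on the log2 scale, they correlated over the 28 libraries with Pearson's r = 0.469 (permutation p = 0.0118) and Spearman's rho = 0.432 (permutation p = 0.0222). Adjusted over the 6 relations examined, these p-values were 0.0355 and 0.113. Without the 2 libraries farthest from the median of 16S, BN-Lx post-estrus replicate 5 and SHR post-estrus replicate 13, r was 0.278 (permutation p = 0.17), and the relation over all libraries no longer passed the threshold. Within each suffix r was 0.700 in b35 (n = 15) and 0.349 in b37 (n = 13). Within strains it was 0.543 in SHR and 0.389 in BN-Lx (n = 14 each). Both values share the same denominator in each library. Per spike-in count instead, r was 0.859 (permutation p adjusted over the 6 relations 6e-05). There the spike-in total, which varied between libraries, is the shared denominator.

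**Figure D4:**
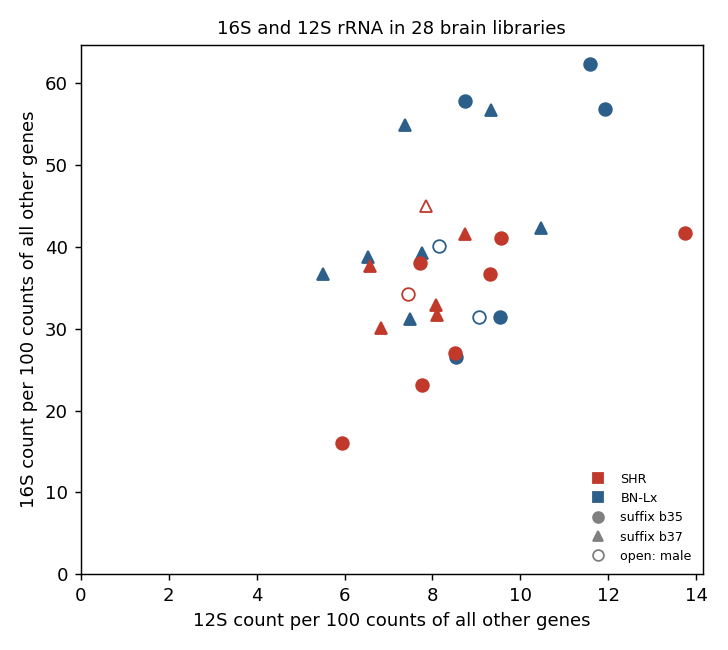
Counts of 16S (vertical axis) against counts of 12S (horizontal axis), each per 100 counts of all other genes, in the 28 libraries. Red is SHR and blue BN-Lx, circles are suffix b35 and triangles b37, and open symbols are males. Values run from 16.1 to 62.4 for 16S and from 5.50 to 13.7 for 12S, and libraries with similar 12S values differ widely in 16S.

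Against the summed spike-ins, scaled the same way, 12S had r = -0.489 (adjusted permutation p = 0.0355) and rho = -0.381 (adjusted p = 0.113), and r = -0.291 without BN-Lx estrus replicate 4 and SHR estrus replicate 5. The values for 16S were r = -0.393 and rho = -0.368 (adjusted permutation p = 0.078 and 0.113), and r = -0.295 without BN-Lx post-estrus replicate 5 and SHR post-estrus replicate 13. For 12S, r was -0.531 in b35 and -0.709 in b37; for 16S it was -0.269 in b35 and -0.657 in b37. The sign was negative for both RNAs, and only the Pearson value of 12S passed the adjusted threshold over all 28 libraries. A mean fragment length implied by the deposited effective lengths, added after seeing the data, had r of -0.102 with 16S, -0.213 with 12S and 0.05 with the log2 ratio, none past the threshold.

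Both RNAs varied more among animals of a group than most well-covered genes. The within-group SD of log2 CPM (counts scaled to a fixed library size) was 0.37 for 16S and 0.31 for 12S, against a median of 0.19 over the 2031 genes above 64 CPM. Of those genes 87.1% had a smaller SD than 16S and 79.7% a smaller SD than 12S. By description number, SHR females numbered 200317 had 16S shares between 25.1% and 27.3% (n = 4), and those numbered 201066 between 13.2% and 27.7% (n = 6). In BN-Lx females the ranges were 22.5% to 35.9% for number 200537 (n = 3), 19.7% to 34.7% for 200538 (n = 3) and 25.8% to 33.8% for another number (n = 4). The part of this number in the levels was not tested.

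The genes whose pattern over the 28 libraries was most like that of each RNA are given by identifier. For 16S they were ENSRNOG00000025940 (Pearson's r = 0.928) and ENSRNOG00000004926 (r = 0.926), and for 12S ENSRNOG00000001551 (r = 0.881) and ENSRNOG00000022619 (r = 0.877). The likeness was measured on log2 CPM relative to the counts outside both RNAs, over 14568 genes, whose median r was 0.107 with 16S and 0.06 with 12S. The 4 genes are different for the 2 RNAs, and all values share their library's denominator.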

How the data were processed

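Whole-brain RNA of 28 rats was sequenced as stranded, ribosomal-RNA-reduced paired-end libraries, per the labels. The tools were cutadapt and RSEM, per the submitters' processing notes; versions, aligner settings, build and gene models: not given in the sources used here. Deposited by the authors were, per the file headers, expected counts per gene (RSEM's estimates, not normalized), TPM (scaled for length and to a fixed total) and gene lengths; FPKM was not used. The deposited matrix held the same expected counts (largest difference 0.5, and 0 for both RNAs).

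Expected counts were rounded to whole numbers and spike-ins left out. Genes were kept by filterByExpr (count minimum 10), scaled by TMM and fitted with edgeR 4.0.16 (quasi-likelihood, robust; R 4.3.3) with 8 groups and the suffix as terms, Benjamini-Hochberg adjustment over 18134 genes, and a call at an adjusted p under 0.05. Intervals come from the fold change, its F value and its degrees of freedom. DESeq2 1.42.0 and limma 3.58.1 (voom with quality weights) were alternatives. The fit was also run on simulated counts with a strain shift in females for some genes and no stage or suffix effect. Its outcome is not given here and is not used as support. Shares and ratios were compared by permutation over animals (100000 resamples, or exact; scipy 1.17.1). Likeness used log2(CPM + 1) of genes with a mean of at least 1.

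Both RNAs, the lists and the tests were chosen with earlier results of these data known. The named genes were both RNAs and the 2 most alike to each, by identifier. Lists of mitochondrial messenger RNAs, transfer RNAs, nuclear partners and cell-type markers were set by symbol; 0 identifiers matched a symbol, so they were not looked up, and the brain label was not checked against markers. Alternatives chosen after seeing the data were strain permuted within suffix and the fragment-length relations. Replicates are separate animals per the labels.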

Additional observations from a re-analysis of the deposited data

How the results depend on the processing

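Across settings other than leaving out an animal, 233 values kept their side of the threshold and, where the test has one, their direction. The others were 20 that changed sign, 2 that gained and 7 that lost a call. Tests over the stages have no direction to keep. The ratios from the deposited matrix could not change, since its counts of both RNAs were the same. In females by strain, 12S was 0.0135 with library totals only, and DESeq2 called 16S (-0.44) along with others among its 2197 called of 18089 genes. In males by strain, 12S was -0.16 without the suffix term, -0.0646 with library totals only, -0.0197 with totals without both RNAs, -0.14 with spike-in totals, -0.0268 without the filter, -0.20 in the compared groups only and -0.19 in b35 only; 16S was -0.0575 in the compared groups and -0.0488 in b35. For sex in SHR, 12S was 0.0521 in b37. For strain by sex, 12S was -0.0927 without the suffix term, -0.0782 with library totals and -0.0022 in b35. Strain by stage called 16S in b35 only (adjusted p = 0.0365), where 1 BN-Lx post-estrus library remained. This b35 fit called many other genes too, so no conclusion is drawn from its 16S call. The 12S share difference by strain was -0.324 per 100 other counts, -0.353 per spike-in count, -0.419 without the 8 most abundant other genes and -0.130 points in b35. The 16S share difference lost its call per spike-in count (-4.06), and in b35 and b37 alone 16S (-6.96 and -3.85), the sum (-7.09 and -3.62) and the log2 ratio (-0.35 and -0.28) lost theirs, with fewer animals. Where not shown by construction, the cause was not tested.

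Leaving out 1 animal at a time gave -0.47 to -0.36 for 16S and -0.17 to -0.08 for 12S in females by strain, -0.0489 to 0.35 and -0.19 to 0.20 in males, -0.29 to 0.10 for 12S by sex in SHR, and -0.0718 to 0.32 for 12S strain by sex. Share differences ran from -6.30 to -4.58 points (16S), -0.0398 to 0.354 (12S) and -6.01 to -4.26 (sum), the log2 ratio by strain from -0.43 to -0.32 and by suffix from -0.41 to -0.27.

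Replicate numbers did not pair the animals: 18 same-number pairs had correlations of -0.746 to 0.524, and 0 of 24 libraries correlated best with their own number. Of 30 pairs that share a description number, 14 had a correlation over 0.1 (range -0.661 to 0.812). The 4 pairs of number 200317 had 0.349 to 0.812. These correlations use deviations from group means, which mirror each other in a male group of 2 animals. Pairs that involve both males of a group are thus not separate values. With the replicate number as a block, 16S by strain in females was -0.20 (adjusted p = 1), 16S by sex in SHR was -0.58, and 96 genes were called by strain in females, against 1724 without the block. With the description number as a block, 12S by sex in SHR was 0.29, and the strain contrasts could not be estimated. Over all settings the genes called by strain ran from 96 to 3721 in females (library totals only: 3094 higher and 627 lower, against 830 and 894) and from 33 to 747 in males (145 in the report), by sex from 0 to 74 in BN-Lx and 0 to 23 in SHR (6 each), by stage from 0 to 2886 in BN-Lx and 0 to 1 in SHR, and from 0 to 5585 for strain by stage and 0 to 6 for strain by sex (0 each); 2886 and 5585 came from b35 alone. The 5585 genes, out of 18602 tested, come from the same b35 fit that called 16S for strain by stage. Counting error at this depth is small beside the spread between animals.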
